A study of Mus musculus with 6 samples.

Results

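The protein disulfide isomerase family was followed in microglia, macrophages that reside in brain tissue, with and without deletion of the autophagy gene Atg7. The members were 10 genes taken by name, out of 55487 genes in the count table. They comprise 7 soluble proteins of the endoplasmic reticulum (ER) lumen (P4hb, Pdia3, Pdia4, Pdia5, Pdia6, Txndc5 and Erp44) and 3 membrane-anchored ones (Tmx1, Tmx3 and Tmx4). All 10 passed the filter on low counts. The libraries came from cortex of female mice aged 20 months, each animal giving more than 20k live CD45-intermediate, CD11b-positive cells sorted by flow cytometry. The 3 control mice were Atg7-fl/fl, carrying floxed Atg7 and no Cre; the 3 knockout mice were Atg7-fl/fl;Cx3cr1-CreERT2, littermates per the series' design text. Both groups thus share the floxed alleles. Deletion of Atg7 and the Cre allele, driven from the Cx3cr1 locus, were varied together and cannot be told apart. Treatment of the mice is not given in the labels.

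Protein disulfide isomerases form, break and rearrange the disulfide bonds of proteins entering the secretory pathway, through thioredoxin-like domains with a pair of reactive cysteines. In many cells the unfolded protein response (UPR), the program that adjusts folding capacity to the load of the ER, raises their transcription together with that of the lumenal chaperones. Its transcription factors ATF6 and XBP1 act on short promoter motifs, among them the ER stress response element (ERSE), which pairs a CCAAT box with a CCACG box. Microglia secrete complement, cytokines and lysosomal enzymes, many of which carry disulfide bonds.

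The promoter sequences are shown because 1 member held this element together with 5 genes of the related lists. RefSeq promoter windows on build GRCm38.p6, running from 250 bases before to 50 bases after a transcript start, were used for 9 of the 10 members (12 windows), all but Tmx3. The ERSE was searched on both strands as CCAAT and CCACG with 9 free bases between them. It was present in 39 of 32851 windows (0.119%), and Pdia6 was the 1 member with a match. The 150 bases before the Pdia6 start, on the plus strand at chr12:17266439-17266588, are given with the fixed letters of the element in capitals.
Pdia6: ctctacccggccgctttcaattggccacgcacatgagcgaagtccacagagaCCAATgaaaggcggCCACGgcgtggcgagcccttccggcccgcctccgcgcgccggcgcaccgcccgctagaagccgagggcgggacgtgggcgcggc
The same element was found in the windows of Calr, Canx, Hspa5 and Hsp90b1, whose products work with the isomerases on folding clients, and of the oxidase gene Ero1b, listed in the count table as Ero1lb. The elements are set below each other, read in the CCAAT to CCACG direction, with the fixed letters in capitals.
Pdia6 element: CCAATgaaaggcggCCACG
Calr element: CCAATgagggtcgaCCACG
Canx element: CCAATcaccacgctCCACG
Hspa5 element: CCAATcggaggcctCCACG
Hsp90b1 element nearer the start: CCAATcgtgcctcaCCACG
Hsp90b1 element farther from the start: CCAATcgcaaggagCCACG
Ero1b element: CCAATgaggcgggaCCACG
The Pdia6 element spans bases -98 to -80 before the start. The related ERSE-II motif, ATTGG and CCACG with 1 free base between them, was in 0 of the 12 member windows and in 0.0365% of all windows. The core of the UPR element, TGACGTG, was in 1 of the 3 windows of Txndc5, against 2.01% of all windows. CCAAT alone, which is also part of the ERSE, was in 7 of the 12 member windows and in 37.4% of all windows. These are matches of letters in a window of fixed length and do not show binding; the other members lack only these letters in this window.

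Depth was uneven across the series. Total reads were 39389527, 38798703 and 1254380 for controls 1 to 3, against 33129233, 3789208 and 21282335 for knockouts 1 to 3. The name shallow libraries is used for control 3 and knockout 2. A floor of 3 reads corresponded to 0.0789 CPM, the TMM-scaled count relative to library size, in control 1 and to 2.36 CPM in control 3. Atg7 had 62.9 CPM ± 5.46 (SD, n = 3) across the controls against 25.1 CPM ± 1.39 across the knockouts, with every knockout library below every control library. Reads on Esr1, the gene from which the ligand-binding part of CreERT2 is derived, stood at 6.49 to 11.8 CPM across the controls and at 349 to 443 CPM across the knockouts. Cx3cr1, the locus from which the Cre is driven, had 10620 CPM ± 907 (SD, n = 3) across the controls against 4710 CPM ± 791 across the knockouts. P2ry12, a defining microglial receptor, lay between 10839 and 12950 CPM in all 6 libraries. Of the 10 microglial markers followed, P2ry12 among them, 2 had a higher mean in the knockouts and the rest a lower one.

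The comparison asked how transcripts of these enzymes differ between the knockouts and the controls. Pdia3, Pdia6, Pdia4 and P4hb were lower in every knockout library than in every control library. Over all 6 libraries Pdia3 showed the largest difference of the 10, with a control mean 2.54 times the knockout mean. The 3 membrane-anchored members and the soluble members Pdia5, Txndc5 and Erp44 overlapped between the groups. With p-values adjusted over all genes tested, edgeR called 0 of the 10 members lower and 0 higher. It called 0.0127% of all genes lower and 0.0317% higher. The genes called lower were 2, Atg7 and Cx3cr1. Unadjusted edgeR p-values were under 0.05 for 5 of 10 members on the lower side (Pdia6, Pdia4, Pdia3, Pdia5 and P4hb) and 0 on the higher side, against 1.98% of all genes lower and 2.34% higher. DESeq2 called 2 members lower, Pdia3 and Pdia6, and 0 higher, against 0.216% and 0.311% of all genes. Limma voom called 0 members on either side, against 0.038% lower and 0.057% higher. Of the 10 members, 4 lay lower without overlap and 0 higher, against 4.47% and 6.59% of all genes tested. Without both shallow libraries edgeR called 0 members, against 0.178% of genes lower and 0.0535% higher. In that fit unadjusted p-values were under 0.05 for 4 members on the lower side (Pdia3, Pdia4, Pdia5 and Pdia6) and 0 on the higher side, against 4.08% and 2.91% of genes.

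**Figure D1:**
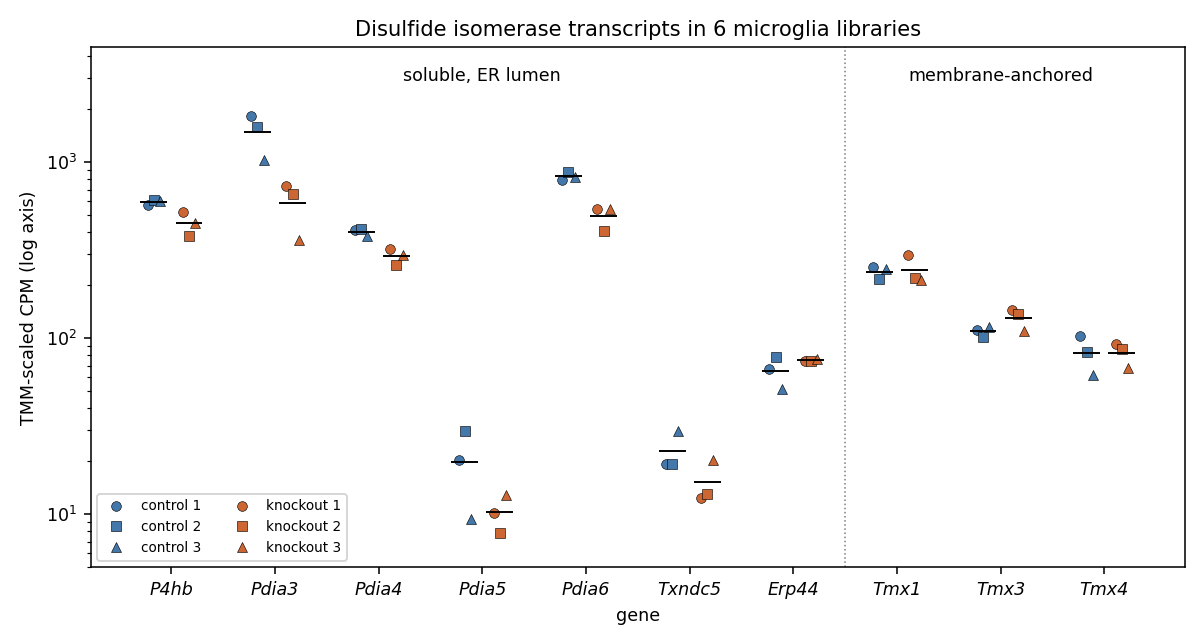
Level of each of the 10 genes (x axis) in TMM-scaled CPM (y axis, log scale), with 1 point per library and bars at the mean of 3 libraries. Pdia3, Pdia6, Pdia4 and P4hb had all knockout points below all control points, whereas the points of Pdia5, Txndc5, Erp44, Tmx1, Tmx3 and Tmx4 overlapped.

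Pdia3 encodes the isomerase that works with calnexin and calreticulin on glycoproteins and that sits in the MHC class I peptide-loading complex. It had 1839, 1591 and 1025 CPM across controls 1 to 3, against 733, 658 and 363 CPM across knockouts 1 to 3. The groups did not overlap, but both spread widely: control 3 was the lowest control, and knockout 3, a deep library, was the lowest of all. The log2 fold change, knockout over control, was -1.35 (SE 0.34, 95% interval -2.17 to -0.52; edgeR unadjusted p = 0.00707, adjusted p = 0.764). DESeq2 gave an adjusted p of 6.3e-06 and limma voom 0.0659. The coefficient of variation was 28.1% in the controls and 33.5% in the knockouts. That is far above the 5.64% and 15.5% of Pdia6.

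Pdia6 encodes an isomerase that associates with the chaperone BiP, the product of Hspa5. Its values were 790, 883 and 825 CPM across controls 1 to 3, against 541, 410 and 545 CPM across knockouts 1 to 3. The lowest control stood well above the highest knockout, and here control 3 lay between the 2 deep controls. Its log2 fold change was -0.74 (SE 0.15, 95% interval -1.05 to -0.43; edgeR unadjusted p = 0.000149, adjusted p = 0.139). By p it ranked 5 among the genes with a log2 fold change below 0. DESeq2 gave an adjusted p of 0.000233 and limma voom 0.0659.

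Pdia4 encodes a large isomerase with several thioredoxin-like domains, found in chaperone complexes of the ER. It had 411, 419 and 380 CPM across the controls, against 320, 261 and 298 CPM across the knockouts. The groups did not overlap and each was tight, with the knockout level at 72.7% of control in the fit. The fitted log2 difference was -0.46 (SE 0.14; edgeR unadjusted p = 0.00586, adjusted p = 0.686), and DESeq2 did not call it (adjusted p = 0.084).

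P4hb encodes the classical disulfide isomerase, which is also the beta subunit of prolyl 4-hydroxylase and a subunit of the microsomal triglyceride transfer complex. Levels were 573, 608 and 605 CPM across the controls, against 523, 384 and 454 CPM across the knockouts. Knockout 1 lay close under the lowest control. Its log2 fold change was -0.39 (SE 0.15; edgeR unadjusted p = 0.0171, adjusted p = 0.999). Without both shallow libraries the log2 fold change was -0.28 and the unadjusted p 0.065.

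Pdia5 and Txndc5 are the 2 members with the fewest reads, and both groups overlapped for each. Pdia5 encodes an isomerase linked to activation of ATF6. It had 20.5, 29.8 and 9.43 CPM across controls 1 to 3, against 10.2, 7.79 and 12.8 CPM across knockouts 1 to 3. The value of control 3 rests on 12 reads, with an exact Poisson interval of 4.87 to 16.5 CPM that covers counting error only and spans the knockout range. The fitted log2 difference was -0.997 (SE 0.36; edgeR unadjusted p = 0.0155, adjusted p = 0.999). It was -1.27 without control 3 and -0.59 without control 2, where the unadjusted p was 0.189.

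Txndc5 encodes an isomerase with repeated thioredoxin-like domains. It had 19.4, 19.2 and 29.9 CPM across the controls, against 12.4, 12.99 and 20.4 CPM across the knockouts. Here knockout 3 lay above controls 1 and 2, and control 3, which rests on 38 reads, was the highest. Its log2 fold change was -0.53 (SE 0.29; edgeR unadjusted p = 0.088, adjusted p = 0.999). It was -0.84 without knockout 3, -0.34 without control 3 and -0.25 without both shallow libraries. In GENCODE M21, 11.9% of its exonic bases are shared with genes on the opposite strand, among them Bmp6, so the assignment of its reads is uncertain.

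Erp44 encodes a soluble family member that cycles between ER and Golgi and retains clients with free thiols, among them the ER oxidases. It had 66.5, 78.5 and 51.9 CPM across the controls, against 74.6, 74.8 and 76.4 CPM across the knockouts. The knockouts were nearly equal and lay inside the control range, while control 3, with 66 reads, was the lowest. The fitted log2 difference was 0.18 (SE 0.18, 95% interval -0.21 to 0.58; edgeR adjusted p = 0.999). It was 0.042 without control 3 and 0.34 without control 2.

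Tmx1 encodes a membrane-anchored isomerase that prefers membrane-bound clients. It had 253, 217 and 248 CPM across the controls, against 296, 220 and 215 CPM across the knockouts. Its log2 fold change was 0.03, with a 95% interval of -0.32 to 0.37, and its sign turned without control 2, without knockout 1 and after thinning of the counts to equal totals.

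Tmx3 and Tmx4 encode further membrane-anchored thioredoxin-related proteins. Tmx3 had 111, 102 and 116 CPM across the controls, against 145, 137 and 110 CPM across the knockouts, a log2 fold change of 0.26 (95% interval -0.09 to 0.61). Its knockout 3 lay inside the control range. Tmx4 had 103, 83.9 and 62.1 CPM across the controls, against 92.4, 87.3 and 67.8 CPM across the knockouts. Its log2 fold change was -0.02 (95% interval -0.45 to 0.41), and the sign turned under 5 of 18 alternative settings. The interval of Tmx4 leaves room for moderate differences in either direction, and that of Tmx3 for a higher level in the knockouts. Of the exonic bases of Tmx3, 4.94% are shared with a processed pseudogene on the same strand.

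**Figure D2:**
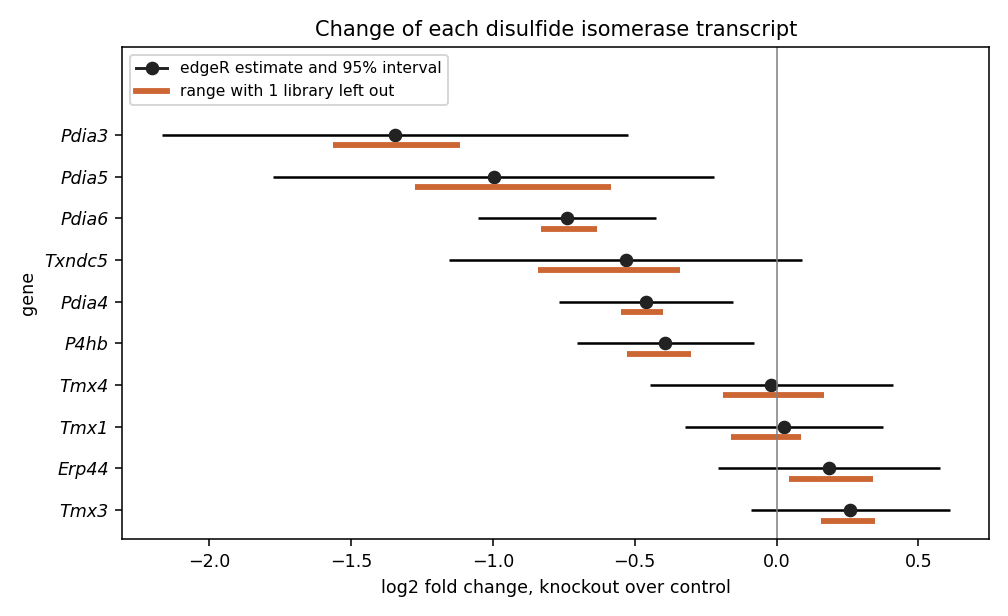
Log2 fold change, knockout over control (x axis), of each gene (y axis); black points and lines are the edgeR estimate and its 95% interval, and orange bars span the estimates with 1 library left out. The intervals of Pdia3, Pdia5, Pdia6, Pdia4 and P4hb lie below 0 before adjustment over all genes, and those of the other 5 include 0.

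The 7 soluble members had a median log2 fold change of -0.53, with 6 below 0, and the 3 membrane-anchored members a median of 0.03, with 1 below 0. Over all 10 the median was -0.43, beside 0.02 for all genes tested. Of all genes tested 47.5% lay below 0 and 52.5% above. The summed level of the soluble members was 3720, 3629 and 2927 CPM across controls 1 to 3, against 2215, 1808 and 1770 CPM across knockouts 1 to 3. The membrane-anchored sum was 467, 403 and 426 CPM across the controls, against 534, 444 and 393 CPM across the knockouts. The first sum separated the groups and the second did not. The soluble sum is weighted toward Pdia3, which alone made up 38.0% of the summed CPM of all 10 members in the controls and 24.2% in the knockouts.

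Because both sums depend on how libraries are scaled, members were also set against Tmx1 within each library, per kilobase of exon. This ratio needs no scaling between libraries; it was chosen after the values were seen and is given as a description. Pdia3 over Tmx1 was 7.64, 7.69 and 4.34 across controls 1 to 3, against 2.60, 3.15 and 1.77 across knockouts 1 to 3. Pdia6 over Tmx1 was 2.75, 3.58 and 2.93 across the controls, against 1.61, 1.64 and 2.23 across the knockouts. For both pairs each knockout library lay below each control library. The same held for P4hb over Tmx1, with means of 2.88 ± 0.31 (SD, n = 3) and 2.16 ± 0.24, and for Pdia4 over Tmx1, with 2.33 ± 0.29 and 1.68 ± 0.21. The ratios of Pdia5, Txndc5 and Erp44 to Tmx1 overlapped between the groups.

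**Figure D3:**
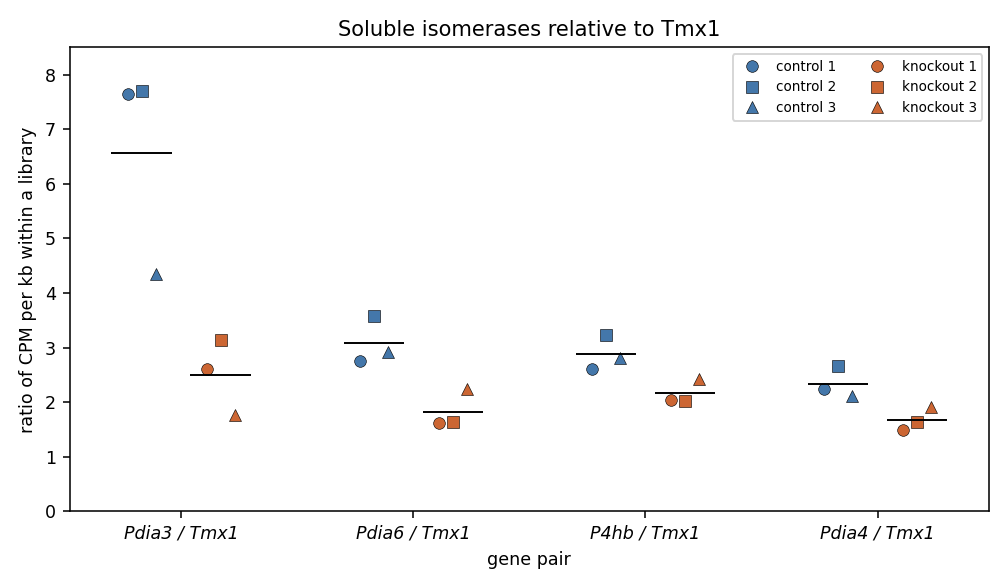
Level of 4 soluble isomerases relative to Tmx1 (y axis, ratio of CPM per kilobase within a library) for each gene pair (x axis), with 1 point per library and bars at the mean of 3 libraries. All 4 ratios were lower in each knockout library than in each control library, and the ratio for Pdia3 in control 3, at 4.34, lay apart from the other controls.

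The soluble members also differed among themselves. Pdia6 over P4hb was 1.05, 1.11 and 1.04 across controls 1 to 3, against 0.790, 0.816 and 0.918 across knockouts 1 to 3. Pdia6 over Pdia4 had means of 1.32 ± 0.08 (SD, n = 3) in the controls and 1.09 ± 0.08 in the knockouts, also without overlap. Pdia6 was thus lower in the knockouts relative to P4hb and Pdia4 in every library. Pdia3 over Pdia6 overlapped, at 2.78, 2.15 and 1.48 across the controls, against 1.62, 1.92 and 0.793 across the knockouts. These ratios were likewise chosen after the values were seen and were not tested.

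Per kilobase of exon in GENCODE M21, the order of the levels in the controls was Pdia3 (473 CPM per kb ± 133, SD, n = 3), Pdia6 (222 ± 12.5), P4hb (208 ± 6.68), Pdia4 (168 ± 8.54), Tmx1 (72.6 ± 5.87), Erp44 (19.2 ± 3.91), Tmx3 (11.0 ± 0.71), Tmx4 (7.60 ± 1.86), Pdia5 (7.18 ± 3.68) and Txndc5 (5.08 ± 1.36). Of the neighbours in this order, the control libraries overlapped for Pdia6 and P4hb, for Tmx4 and Pdia5, and for Pdia5 and Txndc5. In the knockouts P4hb came next after Pdia3, at 159 ± 24.4 CPM per kb, and then Pdia6, at 133 ± 20.6. There the libraries of Pdia3 (186 ± 62.4) overlapped with those of P4hb, and those of Pdia6 with those of P4hb and of Pdia4 (122 ± 12.4). So the lead of Pdia3 over the next member, which was clear of overlap in the controls, was within the spread of the knockout libraries. These overlaps compare values across libraries. Within libraries, Pdia3 over P4hb was 2.92, 2.39 and 1.54 across controls 1 to 3, against 1.28, 1.56 and 0.728 across knockouts 1 to 3. P4hb was thus above Pdia3 only in knockout 3.

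Across the 6 libraries, log2 CPM of Pdia4 and Pdia6 had a Pearson correlation of 0.98, and P4hb had 0.95 with each of them. Pdia3 had 0.84 with Pdia4. Erp44 and Tmx3 had negative correlations with Pdia6, at -0.44 and -0.74. These points share library depth and the group difference, so the values are a description. The genes most like the mean log2 CPM of the 10 members, out of 3000 protein-coding genes at 50 CPM or more, included Hexa, Tfg, Hk2 and Selenos, with correlations of 0.97 to 0.99 over the 6 libraries. Their log2 fold changes lay between -0.31 (Tfg) and -0.16 (Hk2), and none was called by edgeR (adjusted p = 0.999 for each).

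Chaperones and complex partners of the isomerases were covered by a list of 13 genes, of which 12 were tested. Of these, 11 lay below 0, against 47.5% of all genes tested, and their median was -0.27. EdgeR called 0, with an unadjusted p under 0.05 for 4 on the lower and 0 on the higher side, against 1.98% and 2.34% of all genes. DESeq2 called 3 lower, against 0.216% of all genes. The same 4 lay lower without overlap, against 4.47% of all genes tested. The 4 were Calr, Hsp90b1, Hspa5 and Canx, the lectin chaperones and major folding chaperones of the ER lumen and membrane. Calr had -0.87 on the log2 scale (SE 0.15, edgeR adjusted p = 0.0623), Hsp90b1 -0.74 (SE 0.18), Hspa5 -0.71 (SE 0.19) and Canx -0.46 (SE 0.13), the last 3 with edgeR adjusted p-values of 0.261 to 0.587. The call on Calr turned on the processing: its adjusted p was under 0.05 in 10 of 18 alternatives, among them limma voom (0.0431), the stricter filter (0.0142) and the fit without control 3 (0.0123), and ranged up to 0.394 without knockout 2. Without both shallow libraries Hsp90b1 had -0.47 and Hspa5 -0.43. Calr, the lectin that recruits Pdia3, had 579, 651 and 525 CPM across the controls, against 360, 283 and 319 CPM across the knockouts. The promoter windows of these 4 held the ERSE printed above, as did that of the oxidase gene Ero1lb, which overlapped between the groups (-0.20, SE 0.34). Hsp90b1 shares 15.7% of its exonic bases with other genes. Other partners were singled out with their values in view. Tapbp, which works with Pdia3 in the peptide-loading complex, had -0.12 (SE 0.13). P4ha1, the catalytic alpha subunit that binds P4hb in prolyl 4-hydroxylase, had 0.07 (SE 0.14), and Mttp, the lipid transfer subunit that binds P4hb, -0.22 (SE 0.26). P4ha2, another alpha subunit, had -1.43 (SE 0.89) from only 6 to 66 reads per library, with overlap between the groups.

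In all, 37 genes held the ERSE letters in a promoter window, and 19 of them were tested, Pdia6 and the 4 partners included. This set was drawn up after those 5 had been seen to lie lower, so they lend it no support. The other 14 are not a fresh set either, since Ero1lb and Derl3 also stand in the related and marker lists. Of the 14, 12 lay below 0 and 2 above, with a median of -0.19, against 47.5% and 52.5% of all genes tested. Among them edgeR called 0, with an unadjusted p under 0.05 for 1, Dnajc3 (-0.83, SE 0.28), against 1.98% of all genes on the lower side. Derl3 and Pan2, 2 of the 14, lay lower in the knockouts without overlap, against 4.47% of all genes tested. Several of the 14 were at about 1 CPM, Derl3 among them. Pdia3 and Pdia4 held no such match in their windows.

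**Figure D4:**
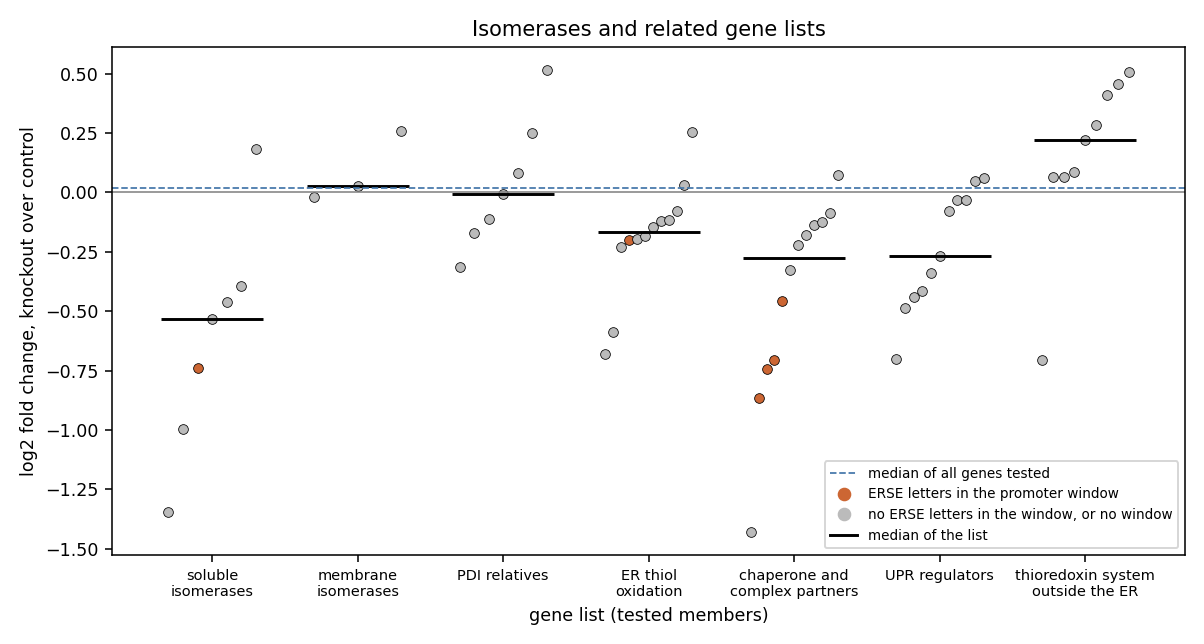
Log2 fold change, knockout over control (y axis), of the tested genes in each list (x axis); orange points are genes whose promoter window holds the ERSE letters, black bars are list medians and the dashed line is the median of all genes tested. Pdia6 and the partners Calr, Hsp90b1, Hspa5 and Canx are the orange points among the soluble isomerases and the chaperone and complex partners, between -0.87 and -0.46, and Ero1lb is the one at -0.20.

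Of the tested genes of ER thiol oxidation, 0 lay lower and 0 higher without overlap, against 4.47% and 6.59% of all genes tested. The list of ER thiol oxidation genes, which includes the oxidases that recharge the isomerases and the peroxidases that use their hydrogen peroxide, had 12 tested members, 10 of them below 0, with a median of -0.16. Of all genes tested, 47.5% lay below 0. EdgeR called 0, with 0 at an unadjusted p under 0.05, against 1.98% of all genes lower and 2.34% higher. DESeq2 called 0, against 0.216% and 0.311% of all genes. For a list of 12 genes, counts of 0 are near these shares. Ero1l, an oxidase of disulfide isomerases listed in the table under this older symbol, had 2.89, 5.05 and 4.71 CPM across the controls, against 2.31, 3.64 and 2.51 CPM across the knockouts. Its groups overlapped at these low levels. Selenof, Selenos and Prdx4 had log2 fold changes of 0.26 (SE 0.19), -0.18 (SE 0.14) and -0.23 (SE 0.19). Selenof had 0.035 without control 3 and 0.41 without control 1, and Prdx4 had -0.066 without control 2.

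Other relatives of the family numbered 13, of which 7 were tested, with 4 below 0 and a median of -0.01. EdgeR and DESeq2 called 0. The unadjusted edgeR p was under 0.05 for 0, against 1.98% of all genes lower and 2.34% higher. The smallest p-values belonged to Txndc16 (log2 fold change 0.25, SE 0.18), Txndc11 (-0.31, SE 0.25), Erp29 (-0.17, SE 0.16) and Txndc12 (-0.11, SE 0.16). Txndc16 lay higher in the knockouts without overlap, at 46.9 to 55.2 CPM in the controls and 57.4 to 62.7 CPM in the knockouts. It was 1 of the 7, against 6.59% of all genes tested, and 0 lay lower without overlap. Pdilt, Agr2 and Agr3, isomerase relatives of testis and secretory epithelia, had 0 reads in all 6 libraries.

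Regulators of the UPR, which comprise its transcription factors, the NF-Y subunits and the ER membrane sensors Ern1 and Eif2ak3, were listed as well. Of 11 tested, 9 lay below 0 around a median of -0.27, against 47.5% of all genes below 0. EdgeR and DESeq2 called 0. The edgeR unadjusted p was under 0.05 for 2 on the lower and 0 on the higher side, against 1.98% and 2.34% of all genes. Xbp1, the UPR transcription factor gene, had 60.6, 76.9 and 29.9 CPM across the controls, against 30.0, 28.8 and 46.2 CPM across the knockouts, giving -0.70 on the log2 scale (SE 0.31, edgeR adjusted p = 0.999). Its groups overlapped through control 3 and knockout 3, its log2 fold change was -0.40 without control 2, and gene counts do not separate the spliced form. The genes of the NF-Y subunits that bind the CCAAT box, Nfyc and Nfya, had -0.49 (SE 0.20) and -0.44 (SE 0.21) and did not overlap between the groups. The other subunit gene, Nfyb, had 0.05 (SE 0.24) with overlap, and so did Atf6 (-0.08, SE 0.18) and Atf4 (0.06, SE 0.23), all 3 picked out with their values in view. Creb3l2 had -0.41 (SE 0.22), and -0.25 without knockout 2. It too did not overlap between the groups, so 3 of the 11 lay lower without overlap, against 4.47% of all genes tested.

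Thioredoxin and glutaredoxin genes outside the ER, some cytosolic and others, such as Txn2, Txnrd2 and Glrx5, mitochondrial, were listed for contrast. Of 9 tested, 8 lay above 0 around a median of 0.22, against 52.5% of all genes above 0. Both edgeR and DESeq2 called 0. An unadjusted edgeR p was under 0.05 for 0, against 1.98% of all genes lower and 2.34% higher. Txn1, cytosolic thioredoxin, had 25.3, 28.6 and 23.6 CPM across the controls, against 34.5, 39.5 and 30.4 CPM across the knockouts (0.41, SE 0.21), without overlap. Glrx and Txnip had 0.46 (SE 0.26) and 0.22 (SE 0.14), and Txnrd2 had -0.70 (SE 0.33). Txnip also lay higher without overlap, which made 2 of the 9, against 6.59% of all genes tested. Without control 3 Glrx had 0.24 and Txnip 0.12, and without control 1 Txnrd2 had -0.45. Whether these genes differ from the ER isomerases was not tested.

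Markers of other cells were measured beside the isomerases, since in bulk libraries fewer cells of a type and less RNA per cell cannot be told apart. All 10 border-associated macrophage markers had a higher mean in the knockouts, with sums of 17.5 to 87.2 CPM across the controls against 68.1 to 280 CPM across the knockouts. Monocyte marker sums were 11.0 to 49.5 and 25.1 to 174 CPM (7 of 8 markers higher in mean), and neutrophil sums 43.0 to 372 and 125 to 1722 CPM (7 of 8). Among the knockouts, all 3 sums and Pdia3 were highest in knockout 1 and lowest in knockout 3. The controls ran the other way, with all 3 sums rising from control 1 to control 3 while Pdia3 fell. There the border-associated macrophage sums were 17.5, 41.5 and 87.2 CPM, and the neutrophil sums 43.0, 316 and 372 CPM. Pdia3 had 1839, 1591 and 1025 CPM in the same controls. The part of these cells in the isomerase values was not tested. Plasma cells hold large amounts of isomerase transcripts. Of the 12 markers of B and plasma cells, 4 had a higher mean in the knockouts, and the list summed to 644 to 816 CPM across the controls against 607 to 696 CPM across the knockouts. Mzb1, Ms4a1 and Iglc2 had 0 reads in all libraries, and Jchain, Igkc, Cd79a and Sdc1 stayed under 1 CPM. Tnfrsf17, a receptor gene of plasma cells, stood at 18.9 to 39.1 CPM and Ighm at 516 to 709 CPM over the 6 libraries, both overlapping between the groups. Of the 12, Cd79b and Derl3 were lower in every knockout library than in every control library, against 4.47% of all genes tested. Cd79b had 66.4 to 77.8 CPM across the controls against 51.3 to 62.6 CPM across the knockouts. Derl3 had 1.08 to 1.57 CPM across the controls against 0 to 0.62 CPM across the knockouts. Its 1.57 CPM in control 3 lay under the floor of 2.36 CPM of that library. The part of such cells was likewise not tested. T and NK cell sums were at most 4.68 CPM and neuron sums at most 6.29 CPM. The sums of astrocyte, oligodendrocyte and vascular markers overlapped between the groups. The microglial sum was 50674 to 56531 CPM across the controls against 45570 to 50675 CPM across the knockouts, with 2 of 10 markers higher in mean. Of these 10 markers, Csf1r, Fcrls and Olfml3 were lower in every knockout library than in every control library, and the others overlapped. Of all genes tested, 4.47% lay lower in this way. The lowest control and highest knockout were close, at 10930 and 10864 CPM for Csf1r. They were 4356 and 4306 CPM for Fcrls, and 4266 and 4264 CPM for Olfml3. The part of microglial content in the isomerase values was not tested.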

How the data were processed

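Counts of reads per gene, not normalized, are the values the authors deposited, per the file headers and the whole numbers in them. The submitters' processing notes name STAR, featureCounts (Subread), Salmon, bcl2fastq and build GRCm39; whether counting used strand was not stated in the sources at hand. Of the 55774 rows, 287 repeated an identifier and were left out; 0 rows named no gene and 0 columns belonged to other samples. Columns were matched to samples by library name.

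Differences were tested in edgeR 4.0.16 (R 4.3.3) with its default expression filter (15787 genes), TMM scaling and a robust quasi-likelihood F-test with group as the only term. P-values were adjusted by Benjamini-Hochberg, with calls under 0.05. The SE is the coefficient over the root of F, and CPM values are TMM-scaled. DESeq2 1.42.0 and limma voom 3.58.1 were alternatives. Exon lengths and shared bases came from GENCODE M21, in which 99.4% of the identifiers were found, and promoters from RefSeq (GRCm38.p6). A search with blastn for copies of member transcripts (95% identity over 200 bases) found 1, the Txndc5 overlap with Bmp6.

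Named genes were all members, up to 4 per related list by smallest p, and the 5 genes most like the members' mean, using a pseudocount of 0.5 CPM, of which 1 is not reported here; others are described as picked out after their values were seen. The members and lists were chosen with earlier results of these data known. The fit was tested on simulated data. The libraries are labelled as biological replicates. Reads carry no molecular identifiers, so the Poisson interval and the floors cover counting error only, whereas the edgeR intervals include the spread between libraries. Same-numbered libraries did not deviate together (correlations 0.32, -0.27 and -0.11), so the numbers were not treated as pairs.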

Additional observations from a re-analysis of the deposited data

How the results depend on the processing

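With 3 mice a group and 2 shallow libraries, depth limits Pdia5 and Txndc5 most. Pdia3, Pdia4, Pdia5, Pdia6, P4hb and Txndc5 stayed below 0, and Erp44 and Tmx3 above 0, in all 18 alternatives. The edgeR fits called 2 members lower, Pdia3 and Pdia6, without a filter and with the replicate block, and DESeq2 also called 2, the same genes; the cause was not tested. With the replicate block the adjusted p was 1.2e-05 for Pdia3 and 0.0459 for Pdia6, and 16 genes were called higher and 9 lower. The log2 fold change of Pdia3 was -1.12 without knockout 3 and -1.57 without control 3, and that of Pdia6 -0.83 without knockout 3 and -0.63 without knockout 2.

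Calls over all genes were 5 higher and 2 lower. They were 60 and 42 without a filter, 49 and 34 in DESeq2, 9 and 6 in voom, 2 and 2 in voom with library weights, 1 and 1 without the robust option, and 9 and 30 without both shallow libraries. Leaving out 1 library gave 1 to 15 higher (15 without control 3) and 1 to 35 lower (35 without control 3, 1 without any other library), with 0 members called. The sign of Tmx1 turned without control 2 (-0.034), without knockout 1 (-0.16) and with thinned counts (-0.0089), and the fits with 1 library left out ran from -0.16 to 0.086. That of Tmx4 turned with library totals (0.041), the replicate block (0.0085), thinned counts (0.099), without control 1 (0.17) and without knockout 3 (0.085), with a range of -0.19 to 0.17 over the fits with 1 library left out. Txndc12 turned with thinned counts (0.052). The unadjusted p of P4hb was under 0.05 in 4 of 6 fits with 1 library left out. Without both shallow libraries 4 members, Pdia3, Pdia4, Pdia5 and Pdia6, had an unadjusted p under 0.05 on the lower side, against 4.08% of all genes. The median of all genes moved by less than 0.1 in every alternative.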
